A study of Mus musculus with 3 samples.

Results

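The genes described here are the chains of the collagen family, as measured in cells sorted from fetal mouse kidney for a Meis1-EGFP reporter. Members were all probe sets whose platform annotation gave a single symbol from a list of 41 collagen chains. The array held 79 such probe sets for 40 chains, out of 34945 single-symbol probe sets for 18193 genes, and Col28a1 had no probe set and was not analysed here. The single group consisted of 3 arrays, each hybridised with RNA from 1 pool of about 20 kidneys at E15.5 (Theiler stage 23) from CD-1 mice. All pools carried the transgene Tg(Meis1-EGFP)FO156Gsat, a green fluorescent reporter driven by Meis1 regulatory sequence, and EGFP-positive cells were sorted after 5 min of trypsin digestion. There was no unsorted kidney, reporter-negative fraction or second genotype among the samples, so each gene was compared with background and not with another cell population. The labels name the sorted cells as peripheral blastema in one place and as nephrogenic interstitium in another. All 14 nephrogenic interstitium markers were above background, with Foxd1 at 7.46 ± 0.21 and Meis1 at 6.83 ± 0.21 log2 units over it (SE, n = 3), as were 7 of 12 markers of cap mesenchyme, the nephron progenitors (58.3%, near the 57.3% of all genes). Among the cap mesenchyme markers, Six2 and Eya1 were above background (1.85 ± 0.20 and 3.46 ± 0.27), and Cited1 and Osr1 were not (-4.21 ± 0.19 and -3.14 ± 0.37). Distances over these 12 markers ran from -4.21 to 7.36 (Gdnf, named after its value was seen), with a median of 1.44 and a summed signal of 46701 to 54103. Smooth muscle and mural markers passed in 5 of 9 cases (55.6%), with Acta2 at 5.36 ± 0.24 and Rgs5 at 2.92 ± 0.27 above background and Tagln at -0.41 ± 0.27 not above it. Blood and macrophage markers passed in 1 of 11 cases (9.09%), with Csf1r at 1.14 ± 0.20 above background and Ptprc at -1.06 ± 0.32 and Cd68 at -0.58 ± 0.20 not above it. No marker was listed at 0.

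Collagens are trimers of chains that wind around each other in a triple helix, for which glycine must recur at a fixed interval along each chain. Fibrillar collagens assemble into the banded fibrils of stroma, collagen IV forms the sheet-like network of basement membranes, FACIT collagens (fibril-associated collagens with interrupted triple helices) decorate fibrils, collagen VI forms beaded filaments, and transmembrane collagens stay anchored in the cell membrane. In the developing kidney the stroma makes interstitial fibrils, while basement membranes underlie the ureteric epithelium, the nephron and the vessels, and the collagen IV network of the mature glomerulus is built from chains that differ from those of the embryo.

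The promoters of 4 chains are shown first because they come from genes on both sides of the background level and differ in the motifs they hold, and they were picked with those results known. Each sequence is the 250 bases before the annotated start, from RefSeq on GRCm38.p6, written 5′ to 3′ on the strand of the gene. Capitals mark CCAAT and GGGCGG on either strand, searched without allowing for mismatches. The motifs can share end letters, and matches that overlap run together in capitals. Col1a2 lies at chr6:4505368-4505617, plus strand, Col3a1 at chr1:45311288-45311537, plus strand, Col8a2 at chr4:126286544-126286793, plus strand, and Col10a1 at chr10:34389731-34389980, plus strand.
Col1a2: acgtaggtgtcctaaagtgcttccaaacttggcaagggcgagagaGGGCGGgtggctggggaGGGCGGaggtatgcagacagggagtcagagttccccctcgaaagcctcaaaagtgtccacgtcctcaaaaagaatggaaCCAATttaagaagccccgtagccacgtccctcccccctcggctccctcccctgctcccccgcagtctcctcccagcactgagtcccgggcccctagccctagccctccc
Col3a1: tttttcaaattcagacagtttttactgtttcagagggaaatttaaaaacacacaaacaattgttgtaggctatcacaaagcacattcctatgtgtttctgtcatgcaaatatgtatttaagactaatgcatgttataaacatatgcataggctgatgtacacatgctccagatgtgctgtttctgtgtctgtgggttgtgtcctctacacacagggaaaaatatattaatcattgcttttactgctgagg
Col8a2: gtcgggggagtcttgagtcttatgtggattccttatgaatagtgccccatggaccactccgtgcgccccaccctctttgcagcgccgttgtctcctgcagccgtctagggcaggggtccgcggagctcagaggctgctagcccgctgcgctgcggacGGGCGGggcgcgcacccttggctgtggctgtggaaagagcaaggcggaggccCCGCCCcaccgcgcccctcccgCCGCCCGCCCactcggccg
Col10a1: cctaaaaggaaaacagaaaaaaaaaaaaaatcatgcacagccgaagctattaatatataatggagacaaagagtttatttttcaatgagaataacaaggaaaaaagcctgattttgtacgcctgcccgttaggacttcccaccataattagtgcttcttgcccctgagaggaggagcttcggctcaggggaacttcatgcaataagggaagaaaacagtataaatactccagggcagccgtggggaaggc
Col1a2, Col3a1 and Col8a2 were above background, and Col10a1 was not. The window of Col1a2 held 1 CCAAT and 2 GGGCGG matches, that of Col8a2 held 0 and 4, and those of Col3a1 and Col10a1 held neither motif. A promoter window was found for 32 of the 41 chains, 35 windows in all. GGGCGG occurred in 17 of 27 windows of collagens above background (63.0%), in 2 of 7 windows of collagens not above it (28.6%) and in 32.7% of all 32851 promoter windows. CCAAT occurred in 11 of 27 (40.7%), 1 of 7 (14.3%) and 33.8%, in the same order. These are matches of letters in a fixed window and not sites of binding, and Col28a1 has a window but no array value. The 27 windows came from 24 genes, since some genes have more than 1 window. The share over windows of all genes above background was not computed, so the motif shares show no trait particular to collagens.

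The sorted cells gave signal above background for 30 of 40 collagen chains (75%), against 57.3% of all genes. The median distance from background was 3.66 log2 units over the 40 collagens and 1.51 over all genes. Without a model, 31 of the 40 exceeded the level on every array, as did 59.2% of all genes. Background on each array was the 95th percentile of the signals of 71 chemosensory receptor genes, which are made in sensory neurons, and stood at signals of 136, 186 and 169 in replicates 1, 2 and 3. A gene was called above background where its log2 signal exceeded that level with a one-sided limma test over the 3 arrays at a Benjamini-Hochberg adjusted p under 0.05 over all 18193 genes. Each gene was represented by its brightest probe set, a choice that can lift genes with more probe sets. The 71 chemosensory genes had 80 probe sets, the 40 collagens 79 and all 18193 genes 34945. With probe sets averaged, 26 of the 40 collagens and 50.4% of all genes were above background. By class, 9 of 11 fibrillar, 6 of 6 basement membrane, 4 of 9 FACIT, 3 of 3 beaded filament and 2 of 4 transmembrane chains were above background. The short-chain network collagens gave 2 of 3, the multiplexins 2 of 2, the anchoring fibril chain Col7a1 1 of 1, and the remaining chain with a value, Col26a1, 1 of 1. Probe sets differ in affinity, so signals of different chains were not ranked against each other, and fewer producing cells could not be told apart from less RNA per cell.

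**Figure D1:**
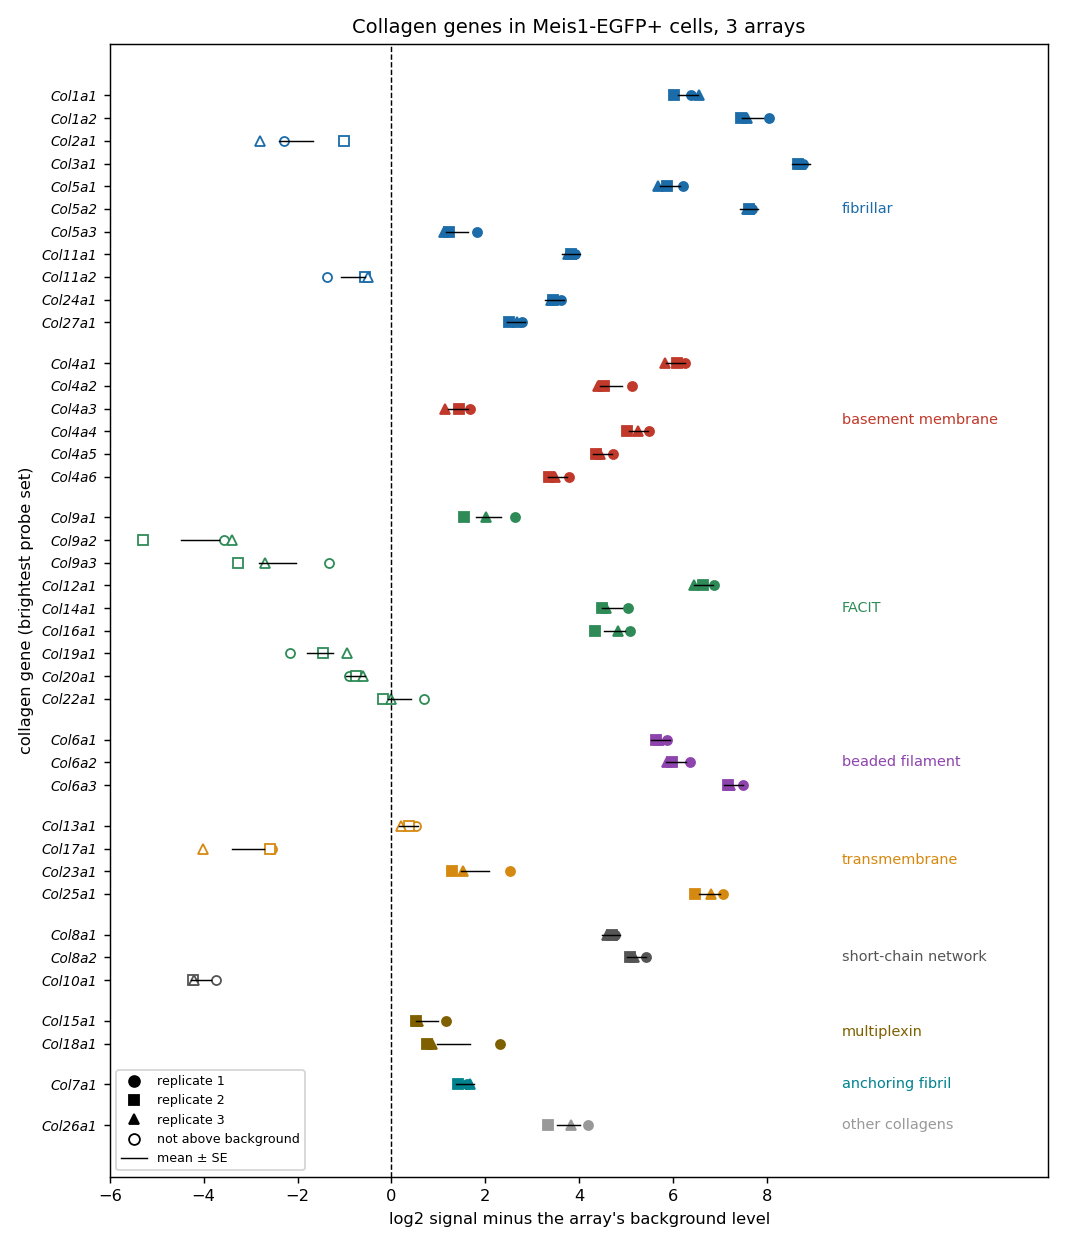
Log2 signal minus the background level of the array (x axis) for each collagen gene (y axis) by structural class, with 1 symbol per array, open symbols for genes not above background and a line for the mean ± SE over 3 arrays; the dashed line is the background level. All symbols of the basement membrane and beaded filament chains lie to the right of the dashed line, while those of Col2a1, Col11a2, Col9a2, Col9a3, Col19a1, Col20a1, Col17a1 and Col10a1 lie to its left.

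Both chains of collagen I, the main fibrillar collagen of stroma, were far above background. Col1a1 gave signals of 11449, 12127 and 15860 in replicates 1, 2 and 3, which placed it 6.32 ± 0.21 log2 units above background (SE, n = 3; limma adjusted p = 1.14e-06). Col1a2 gave 36239, 32676 and 32474, at 7.70 ± 0.22. Replicate 3 was the highest array for Col1a1 and the lowest for Col1a2. Col3a1, which encodes the single chain of collagen III and forms fibrils together with collagen I, gave 59787, 75679 and 71586 and lay 8.72 ± 0.19 above background. These signals were close to the highest on each array (66560, 81986 and 81080), and saturation was not tested.

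Collagen V starts and limits the growth of collagen I fibrils, and its chains were above background as well. Col5a1 gave signals of 10168, 10945 and 8712 (5.93 ± 0.21 log2 units above background), and Col5a2 gave 28193, 36334 and 32395 (7.63 ± 0.19). Col5a3, a chain of a less common form of collagen V, gave 481, 433 and 370, closer to the level at 1.39 ± 0.23 (limma adjusted p = 0.00114). The Col5a3 call rests on 1 of 2 probe sets, since the other gave 15.9, 12.1 and 22.6, and it was lost when probe sets were averaged (-0.76) or when tissue-restricted genes set the level (-0.06). The tissue-restricted genes are a second background list, 48 of them with a value, used at the same percentile. Against the chemosensory level 4 of these 48 were themselves above background, by up to 3.05 log2 units, so this is a stricter level.

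The chains of collagens II and XI, the fibrillar collagens of cartilage, split. Col11a1 gave signals of 2059, 2634 and 2291 (3.83 ± 0.19 log2 units above background), and its second probe set lay at 3.82 ± 0.22. Col11a2 gave 53.0, 125 and 120, below the level on every array (-0.81 ± 0.25). Col2a1, the cartilage chain, gave 27.9, 91.7 and 24.2 (-2.04 ± 0.37), and replicate 2 was the highest of its arrays. Among 12 chondrocyte markers on the list used here, 1 was above background (8.33%, against 57.3% of all genes), namely Hapln1, a link protein, at 1.34 ± 0.20. Of the others, 9 were below the level on every array, among them Matn1 at -1.86 ± 0.51. Acan, the cartilage proteoglycan, was not above background (-0.62 ± 0.32) but exceeded the level in replicate 3. Sox9, named after its values were seen, was not called either (0.35 ± 0.22), but its signals of 146, 219 and 275 exceeded the level on every array. The summed signal of the 12 chondrocyte markers ran from 966 to 1374, and the part of chondrocytes in the values of Col11a1 was not tested. The remaining fibrillar chains, Col24a1 and Col27a1, were above background. Col24a1 gave 1662, 2007 and 1775 (3.48 ± 0.20), and Col27a1 gave 935, 1053 and 1084 (2.65 ± 0.20).

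All 6 chains of collagen IV were above background. Col4a1 and Col4a2, which form the network present in nearly all basement membranes, gave signals of 10427, 12651 and 9563 (6.06 ± 0.21 log2 units above background; limma adjusted p = 1.16e-06) and of 4735, 4264 and 3586 (4.68 ± 0.23). Replicate 3 was the lowest array for both. Col4a5, on the X chromosome, gave 3607, 3785 and 3658 (4.50 ± 0.20), and its neighbour Col4a6, the partner of Col4a5 in a network of epithelia and smooth muscle, gave 1878, 1914 and 1887 (3.54 ± 0.21). The arrays differed less for Col4a6 than for any other collagen above background (SD 0.03 log2 units after centring each array).

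Col4a3 and Col4a4, which join Col4a5 in the network of the mature glomerulus, rest on part of their probe sets. Col4a4 gave 6167, 6044 and 6494 on its brightest probe set, 5.26 ± 0.21 log2 units above background. On the next it gave 233, 407 and 659 (1.29 ± 0.30), and on the other it gave 33.2, 43.6 and 10.6, which was not above the level (-2.71 ± 0.45). Col4a3 gave 434, 502 and 372 on the brighter of its probe sets (1.41 ± 0.21; limma adjusted p = 0.000712) and 192, 213 and 145 on the dimmer (0.16 ± 0.24), which did not pass. When tissue-restricted genes set the level, the Col4a3 call was lost (-0.03). Podocytes make this network in the adult glomerulus. Of 5 podocyte markers with a value 3 were above background (60%, against 57.3% of all genes), with a summed signal of 23961 to 28895. Podxl lay at 1.87 ± 0.22 and Synpo at 2.13 ± 0.20, and Cdkn1c, named after its values were seen, at 7.29 ± 0.20. Cdkn1c gave signals of 22471, 26666 and 27374 in replicates 1, 2 and 3, which was most of the summed podocyte signal on each array. Nphs1, a defining gene of the slit diaphragm, and Ptpro were not above background (-1.67 ± 0.28 and -0.57 ± 0.30). Endothelial markers were above background in 7 of 12 cases (58.3%; summed signal 4030 to 4506), with Cdh5 at 1.30 ± 0.22 and Kdr at 1.06 ± 0.20 above it and Pecam1 at -1.65 ± 0.72 and Flt1 at -0.68 ± 0.24 not. Ureteric bud markers were above background in 5 of 12 cases (41.7%; summed signal 5126 to 6304). Wnt11 lay at 2.05 ± 0.23, Wnt7b at 0.60 ± 0.24 and the epithelial gene Epcam, named after its values were seen, at 4.12 ± 0.24, while Ret, the tip receptor, and Wnt9b were not above background (-0.35 ± 0.25 and -0.14 ± 0.21). The part of these cell types in the collagen IV values was not tested.

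The collagen IV genes stand in head-to-head pairs. In RefSeq the starts of Col4a1 and Col4a2 lie 21 bases apart on opposite strands of chromosome 8, with Col4a1 read leftward from 11312826 and Col4a2 rightward from 11312805, so their first bases overlap. The starts of Col4a5 and Col4a6 lie 1343 bases apart. The 30 bases that hold both starts of the first pair (chr8:11312801-11312830 on GRCm38.p6, plus strand) are shown because both genes were above background and their annotated starts lie together. Which starts the transcripts used was not measured. Capitals run from one start to the other.
Col4a1/Col4a2: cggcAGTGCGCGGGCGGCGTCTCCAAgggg
Of 6 pairs of collagen genes that are direct neighbours among protein-coding genes, 5 had both members above background. These were Col4a1 with Col4a2, Col4a3 with Col4a4, Col4a5 with Col4a6, Col3a1 with Col5a2, and Col6a1 with Col6a2. In the sixth, Col9a1 was above background and Col19a1 was not. Taken singly, 75% of collagens and 57.3% of all genes were above background. The share over all neighbouring gene pairs was not computed, so the count shows no link between neighbours.

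FACIT collagens sit on the surface of fibrils, and their chains fell on both sides of the background level. Col12a1, which binds collagen I fibrils in tissues under tension, gave signals of 15978, 18505 and 14776 (6.65 ± 0.21 log2 units above background; limma adjusted p = 1.04e-06). Col14a1, a related chain, gave 4484, 4153 and 4008 (4.70 ± 0.22), and Col16a1, found on fibrils and near basement membranes, gave 4658, 3780 and 4790 (4.75 ± 0.23). The Col12a1 value comes from 1 of 4 probe sets. A second was above the level at 1.28 ± 0.23, the remaining 2 lay at -1.81 ± 0.24 and -5.12 ± 0.22, and averaging the probe sets left Col12a1 uncalled (0.45, limma adjusted p = 0.0590).

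Collagen IX, which is a trimer of 3 different chains on cartilage fibrils, showed 1 of them. Col9a1 gave 841, 543 and 688 (2.06 ± 0.27 log2 units above background; limma adjusted p = 0.000332), while its other probe set did not pass (0.57 ± 0.29). Col9a2 gave 11.5, 4.75 and 16.1 (-4.09 ± 0.41), and the brightest of 3 Col9a3 probe sets gave 54.1, 19.2 and 26.2 (-2.43 ± 0.39). No array of Col9a2 or Col9a3 reached the level. Among the rest of the class, Col19a1 (-1.52 ± 0.29), Col20a1 (-0.76 ± 0.20) and Col22a1 (0.17 ± 0.25) were not above background on any of their 3, 4 and 3 probe sets. Signals of Col22a1 were 220, 164 and 169, higher than the level in replicate 1, lower in replicate 2 and at the level in replicate 3.

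The 3 chains of collagen VI, whose beaded filaments link cells to the interstitial matrix, were all above background. Signals were 7974, 9238 and 8754 for Col6a1 (5.73 ± 0.20 log2 units), 11200, 11780 and 9873 for Col6a2 (6.07 ± 0.21) and 24691, 26737 and 25256 for Col6a3 (7.30 ± 0.20; limma adjusted p = 1.04e-06). Replicate 2 was the highest array for each chain. A second Col6a2 probe set, whose suffix marks possible cross-hybridisation, gave 2024, 1788 and 654, lowest in replicate 3, and was also above background (3.04 ± 0.41).

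Of the transmembrane collagens, Col25a1, first described in neurons and needed for motor nerve ingrowth into muscle, gave signals of 18310, 16343 and 18914 and lay 6.78 ± 0.22 log2 units above background (limma adjusted p = 1.07e-06). Its second probe set gave 576, 422 and 722 and was above background too (1.78 ± 0.27). Schwann and neural markers were above background in 3 of 7 cases (42.9%, against 57.3% of all genes), with a summed signal of 1802 to 2130. Dbh, an enzyme of noradrenaline synthesis, lay at 2.45 ± 0.23 and Stmn2 at 0.79 ± 0.21, while Sox10, a neural crest factor, and Foxd3 were not above background (-0.21 ± 0.20 and -1.77 ± 0.25). The part of neural cells in the Col25a1 signal was not tested. Col23a1 gave 789, 453 and 486, highest in replicate 1, and was called at 1.78 ± 0.30 (limma adjusted p = 0.00116). Only 1 of its 3 probe sets passed, and the call was lost when probe sets were averaged (-0.36) or when tissue-restricted genes set the level (0.33).

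Col13a1, a collagen of cell adhesion sites and the neuromuscular junction, was not called. Its signals of 197, 239 and 194 exceeded the level on all 3 arrays, by 0.36 ± 0.20 log2 units (limma adjusted p = 0.107). It passed in limma against the 90th percentile of the chemosensory genes (0.71, adjusted p = 0.0132), against 1 common level (0.36, adjusted p = 0.0373) and in the fit on averaged probe sets (0.57, adjusted p = 0.0354). Col13a1 has 1 probe set, so averaging left its signal unchanged and its distance rose only because the background level moved. Col17a1, the hemidesmosome collagen of skin epithelium, gave 23.2, 30.8 and 10.5 (-3.05 ± 0.34).

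Collagen VIII forms hexagonal lattices around vessels and in the cornea, and both of its chains were above background. Col8a2 gave signals of 5894, 6325 and 6094 (5.23 ± 0.20 log2 units). Col8a1 gave 3693, 4850 and 4070 on its brightest probe set (4.68 ± 0.20), but its other 2 probe sets were below the level (-0.86 ± 0.25 and -3.38 ± 0.22), and their average did not pass (0.35, limma adjusted p = 0.121). Col10a1, the related chain of hypertrophic cartilage, gave 10.3, 9.90 and 9.10 (-4.06 ± 0.22), far below the level on every array.

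The multiplexins Col15a1 and Col18a1, which lie in the basement membrane zone and release the antiangiogenic fragments restin and endostatin, were close to background. Col15a1 gave signals of 307, 266 and 251 (0.75 ± 0.23 log2 units above background; limma adjusted p = 0.0163). That call was lost without replicate 3 (0.84, adjusted p = 0.0644), against the 99th percentile of the chemosensory genes (0.27, adjusted p = 0.335) and when tissue-restricted genes set the level (-0.69). Col18a1 gave 679, 314 and 309, with replicate 1 at 2.20-fold over the lowest array, and was called at 1.31 ± 0.35 (adjusted p = 0.0100). Without replicate 1 it lay at 0.81 (adjusted p = 0.0136). Its other probe set was not above the level (-0.43 ± 0.43), and its call was lost when probe sets were averaged (0.64) or when tissue-restricted genes set the level (-0.13).

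Col7a1, the chain of the anchoring fibrils that tie epithelial basement membranes to stroma, gave 414, 494 and 544 (1.57 ± 0.20 log2 units; limma adjusted p = 0.000300) and lost its call when tissue-restricted genes set the level (0.12). Col26a1 gave 2498, 1868 and 2389 (3.78 ± 0.24) on 1 probe set, and its other probe set lay at -2.69 ± 0.22.

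The detection results can also be read by the molecules the chains build. Of 10 known combinations of more than 1 chain that were examined, 8 had every chain above background. These were collagen I, the α1-α2, α3-α4-α5 and α5-α6 forms of collagen IV, both forms of collagen V, collagen VI and collagen VIII. For collagen IX, Col9a2 and Col9a3 were not above background, and for the cartilage form of collagen XI, Col11a2 and Col2a1 were not. Transcript detection does not show that a trimer was assembled, and the same chains take part in more than 1 combination. Taken singly, 75% of collagens and 57.3% of all genes were above background, and no share for combinations of other genes was computed. The calls of Col4a3, Col5a3 and Col8a1, on which some of these combinations rest, were each lost in at least 1 alternative setting.

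Probe sets of the same collagen gene often disagreed. In all, 46 of the 79 collagen probe sets were above background (58.2%), against 48.6% of all single-symbol probe sets. Without a model, 48 of the 79 exceeded the level on every array, as did 51.5% of all single-symbol probe sets. Of 26 collagens with more than 1 probe set, 11 had every probe set above background, 4 had none above it, and in 11 the probe sets disagreed. The 11 were Col5a1, Col5a3, Col4a3, Col4a4, Col9a1, Col12a1, Col14a1, Col23a1, Col8a1, Col18a1 and Col26a1. For Col5a1, 2 probe sets were above background and 1 was not (0.40 ± 0.21), and for Col14a1, 2 were above and 1 lay at -3.53 ± 0.78. Even where both passed, as in Col1a1, a second probe set could behave differently between arrays: the dimmer gave 1816, 650 and 629, highest in replicate 1, while the brighter was highest in replicate 3. RNA was amplified in 2 rounds, and the control probe sets at the 3′ end of Gapdh exceeded those at the 5′ end by 5.00, 5.39 and 5.26 log2 units in replicates 1, 2 and 3 (3.04, 3.40 and 3.04 for Actb). Where each collagen probe set lies along its transcript was not used here, so the part of this 3′ excess in the disagreements was not tested.

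**Figure D2:**
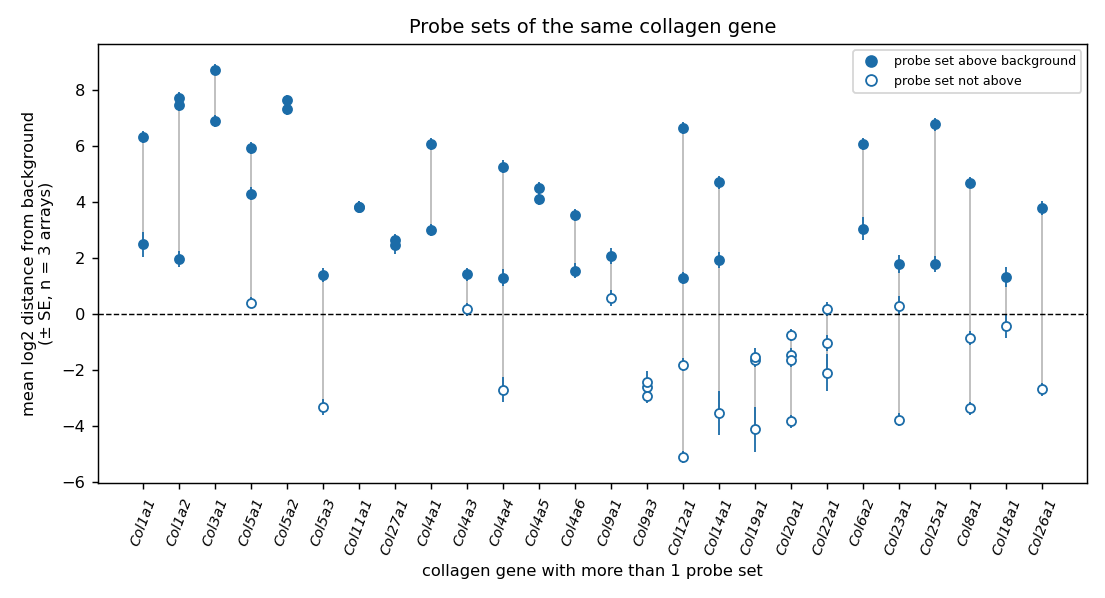
Mean distance from background in log2 units (y axis, ± SE, n = 3 arrays) of every probe set of the 26 collagen genes with more than 1 probe set (x axis), filled where the probe set was above background. Filled and open points share a gene in 11 cases, and Col9a3, Col19a1, Col20a1 and Col22a1 have open points only.

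The 3 pools gave similar collagen signals. Once each array was centred on its median, the SD between arrays had a median of 0.17 log2 units over the 30 collagens above background and 0.16 over all 10422 genes above background. The highest array exceeded the lowest by less than 1.5-fold in 27 of the 30 collagens. The exceptions were Col18a1 at 2.20-fold, Col23a1 at 1.74-fold and Col9a1 at 1.55-fold, and each of them was highest in replicate 1. Replicate 2 was the highest array for 15 of the 30, replicate 1 for 9 and replicate 3 for 6. Relative to the mean of the other arrays, collagens above background had a median difference of -0.05 log2 units in replicate 1, 0.07 in replicate 2 and 0.00 in replicate 3. The corresponding values over all genes above background were 0.02, 0.02 and -0.02.

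**Figure D3:**
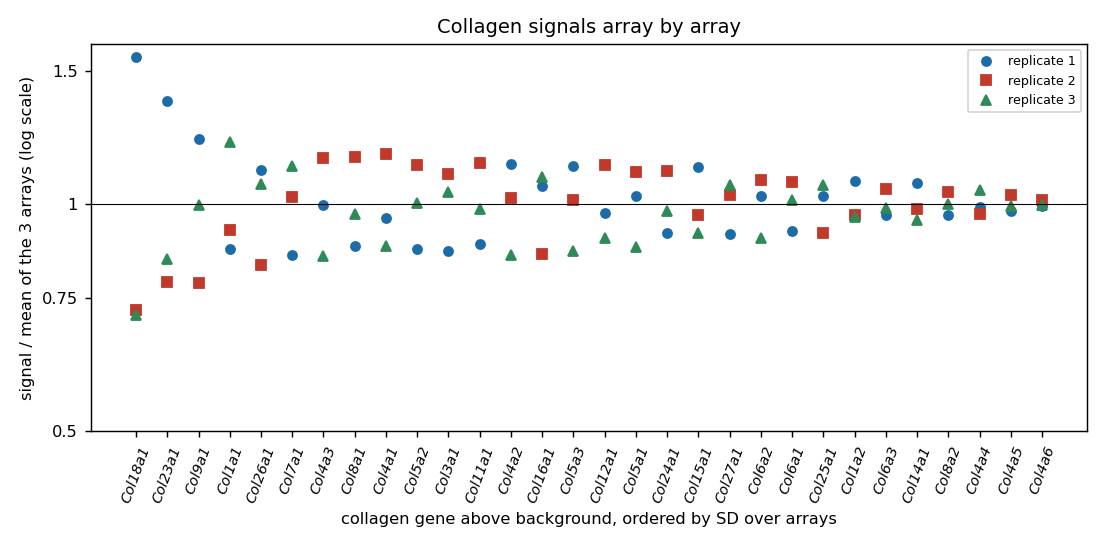
Signal of each array divided by the mean of the 3 arrays (y axis, log scale) for the 30 collagen genes above background, ordered from the largest SD over arrays to the smallest (x axis), with 1 symbol per array. Col18a1, Col23a1 and Col9a1 at the left have replicate 1 well above the other arrays, while the arrays of Col4a4, Col4a5 and Col4a6 at the right nearly coincide.

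Of the genes that modify, fold, export and crosslink collagen, all but P4ha3 and Colgalt2 among those with a value were above background. Hydroxylation of proline stabilises the triple helix and hydroxylation of lysine prepares crosslinks, and 12 of 13 genes of these reactions were above background (92.3%; median 3.69 log2 units). P4ha1 and P4ha2, catalytic subunits of prolyl 4-hydroxylase, lay at 5.42 ± 0.21 and 4.23 ± 0.22, their partner P4hb at 8.22 ± 0.20, and the lysyl hydroxylase Plod1 at 3.02 ± 0.23. P4ha3, another catalytic subunit, gave signals of 204, 146 and 238 and did not pass (0.24 ± 0.26). Among genes of glycosylation, folding and export, 11 of 12 were above background (91.7%; median 4.31). The collagen chaperone Serpinh1 gave 21628, 21628 and 20134 (7.02 ± 0.21), the prolyl isomerase Fkbp14 lay at 6.54 ± 0.20, the galactosyltransferase Colgalt1 at 3.33 ± 0.28 and Mia3, a receptor that loads procollagen into transport carriers, at 3.36 ± 0.28. Colgalt2 did not pass (0.11 ± 0.22).

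Genes of propeptide processing, which are the trimming enzymes and the enhancers Pcolce and Pcolce2, were above background in 4 of 9 cases (44.4%; median 0.35 log2 units). Bmp1, the main procollagen C-proteinase, gave signals of 1690, 1929 and 1722 (3.45 ± 0.20), its enhancer Pcolce gave 6945, 9040 and 5898 (5.47 ± 0.22), the N-proteinase Adamts3 gave 3291, 3581 and 3004 (4.34 ± 0.21) and Furin lay at 1.68 ± 0.22. The relatives of Bmp1 named Tll1 and Tll2 were below the level on every array, at -4.56 ± 0.80 and -5.25 ± 0.42. All 6 crosslinking genes with a value were above background (median 5.20). They included Lox and Loxl1, the lysyl oxidases, at 5.27 ± 0.21 and 5.13 ± 0.24, with Loxl3 at 3.91 ± 0.21 and Loxl4 at 2.62 ± 0.20. Pxdn, the peroxidase that joins collagen IV networks, gave 29544, 33322 and 33691 (7.63 ± 0.20) and was named after its value was seen.

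Collagen receptors were above background in 6 of 9 cases (66.7%; median 3.05 log2 units). The receptor tyrosine kinase Ddr2, which binds fibrillar collagen, gave 15814, 12929 and 15210 (6.49 ± 0.23), and its relative Ddr1 gave 2659, 6523 and 4726 (4.74 ± 0.24), lowest in replicate 1. The collagen-binding integrin subunits Itga1 and Itga10 lay at 3.05 ± 0.21 and 1.60 ± 0.21. Itga2, the subunit of platelets and epithelia, did not pass (-0.41 ± 0.33), nor did the leukocyte receptor Lair1 (-1.88 ± 0.24). Of the 54 genes on these lists 5 had no value, and each count stands beside the 57.3% called over all genes.

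**Figure D4:**
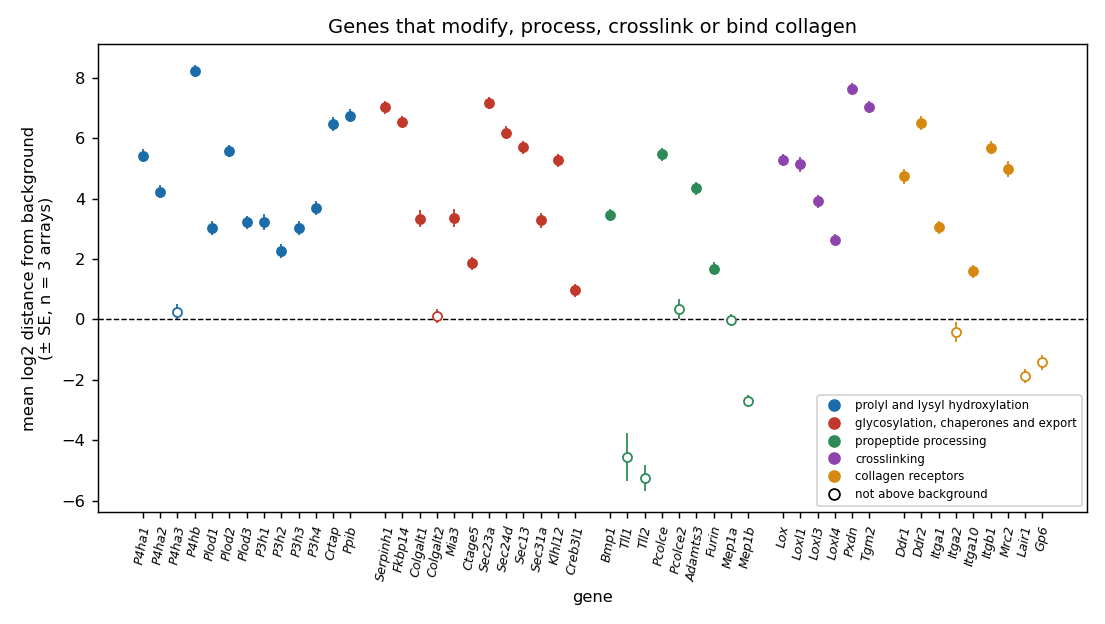
Mean distance from background in log2 units (y axis, ± SE, n = 3 arrays) of genes that modify, process, crosslink or bind collagen (x axis), coloured by list, with open points for genes not above background. All crosslinking genes lie above the dashed background line, while 5 of the 9 propeptide processing genes have open points.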

How the data were processed

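RNA from 3 pools of EGFP-positive cells was hybridised to Affymetrix arrays with 45101 probe sets, 1 pool per array. The authors deposited linear intensity values for each probe set, and the submitters' processing notes name GCOS. Neither its version nor its signal algorithm is given in the sources used here. Mean signal without the lowest and highest 2% of probe sets was 1500.01 on every array, so the arrays had been scaled. No value was 0, so log2 was taken without a pseudocount. Symbols came from the platform annotation and were looked up by Entrez ID in RefSeq GRCm38.p6 (34741 of 34945 matched). Probe sets with several symbols (932) or none (9160) and 64 control probe sets were left out. Detection was tested with limma 3.58.1 in R 4.3.3 (lmFit with an intercept on log2 signal minus the level of the array, eBayes, one-sided), fitted over all genes and, separately, over all probe sets. The code was tested on simulated data. SEs are moderated (prior df 3.69 in the fit over genes, which gives the values of each gene's brightest probe set, and 3.19 in the fit over probe sets, which gives those of the others and the plot of probe sets) and include the spread of the background levels. Whether the pools came from separate litters is not in the labels, so p-values reflect the spread among these 3 pools only, and that spread may be technical. The number of arrays limits the precision. Members, classes, lists and tests were chosen with earlier results of these data known. All collagens with a value are named. Each pathway list is shown by its first 4 genes above and first 2 not above background in list order, and each marker list by its counts and up to the first 2 genes above and first 2 not above. Exceptions are stated.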

Additional observations from a re-analysis of the deposited data

How the results depend on the processing

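Of 40 collagens with a value, 30 were above background as reported. The count ran from 24 (level at the 95th percentile of tissue-restricted genes) to 31, and was 26 when probe sets were averaged. When the lowest 25% of genes were left out it was 30, but out of fewer than 40. That setting removed collagens that were not called as reported, named below. Over all genes, 57.3% were called as reported, against 46.7%, 50.4% and 78.2% under these 3 settings in that order. The collagen count was 30, 30 and 29 without replicates 1, 2 and 3, beside 56.1%, 57.1% and 54.6% of all genes. Collagen probe sets ran from 32 to 49, against 46 of 79 as reported. Shares over all probe sets were not computed for the limma alternatives. Whether collagen probe sets moved more than the rest of the array therefore cannot be told. Of the 30 called, 22 stayed above background in every alternative that gave a value, and 9 of the 10 others were called in none of these alternatives, the exception being Col13a1. With the level of tissue-restricted genes, transmembrane chains fell to 1, multiplexins to 0 and the anchoring fibril chain to 0 (limma; 0 at an unadjusted p under 0.05 in both), and Col5a3 (-0.056), Col4a3 (-0.033), Col15a1 (-0.69) and Col18a1 (-0.13) lay below background. This level moved the median of all genes by -1.45 log2 units, and 4 of the 48 genes on its list were themselves above background as reported. With the mean over probe sets, the short-chain network gave 1, the multiplexins 1, and Col5a3 (-0.76) and Col23a1 (-0.36) lay below background, while the median of all genes moved by -0.91. With the 99th percentile the multiplexins gave 1, and they gave 1 to 2 when 1 replicate was left out. Counts of the pathway lists stayed within 1.5 times their reported value in all 13 alternatives listed for them. The causes were not tested. Leaving out the lowest 25% of genes removed Col2a1, Col9a2, Col9a3, Col10a1, Col17a1 and Col19a1. No paired analysis was possible because the series has a single group.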
